A study of Sus scrofa with 2 samples.

Results

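Solute carriers are membrane proteins that move small molecules across cell and organelle membranes. Their gene symbols carry a family number and a member number. The set described here holds the 141 genes whose symbol has the form SLC, number, A, number and that reached at least 200 UMIs (unique molecular identifiers, counts of distinct captured molecules) over both libraries, of 203 such symbols and of 8487 gene symbols of any kind with that many UMIs. 1 further symbol of this form was left out of the set and is not analysed here. They fall into 44 families, of which 16 had 1 member and 12 had at least 4. SLC12A1 (204 UMIs) and SLC8A3 (201 UMIs) lay just inside the minimum. SLC7A4 (194 UMIs), SLC24A1 (192), SLC13A4 (185), SLC5A1 (184) and SLC6A15 (183) lay just outside it. The members were thus selected on their total UMIs, and a high total is not a finding.

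The data are 2 single-cell RNA libraries of pig endometrium, the lining of the uterus. They came from Yorkshire sows aged 3 years with a similar genetic background, made pregnant by artificial insemination, 1 taken at day 7 and 1 at day 13 of gestation. The labels name no treatment. No sample label ties a day to a library, so they are numbered 1 and 2 here and neither is given a stage. Tissue was digested with enzymes, red cells were lysed, and the 3′ ends of transcripts were captured in droplets. Each library is 1 animal, so there is no replicate check: every interval below is a 95% interval for counting error only, and a difference between libraries may be a difference between animals, digestions or captures.

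Epithelial cells of the endometrium secrete and transport the nutrients that feed the pig conceptus before it attaches, and solute carriers are the main route for sugars, amino acids, ions, metals and vitamins. They sit in several places: importers on the plasma membrane, carriers of the inner mitochondrial membrane (the SLC25 family), and loaders of vesicles or lysosomes. Some amino acid carriers need a second chain, SLC3A2, to reach the surface.

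Library 1 held 10045 barcodes and 45388759 UMIs, with a median of 3431 UMIs per barcode, and library 2 held 15093 barcodes and 87514969 UMIs, with a median of 4335. After called doublets were removed, 8930 and 12673 cells remained, and 48 barcodes occurred in both libraries. Clusters were named X-like from marker genes. Solute carrier symbols were kept out of the clustering, so members did not define the classes. The 6 classes compared between libraries had at least 100 cells in each. In library 1 and library 2 they held 194 and 3171 epithelial-like cells, 2292 and 2175 stromal fibroblast-like cells, 2732 and 1325 smooth muscle or pericyte-like cells, 2557 and 2553 blood endothelial-like cells, 476 and 833 T or NK-like cells, and 188 and 521 macrophage-like cells (macrophages, monocytes or dendritic cells). Of 32 clusters, 25 drew over 90% of their cells from 1 library. Epithelial-like cells of library 1 were mainly cluster 24, led by AQP3, while those of library 2 were clusters 2, 10 and 12. In library 1 the stromal-like class held clusters 5 and 7, and in library 2 it held clusters 4 and 11. The class names were rebuilt here from markers and are not the study's own.

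Members took a larger share of UMIs in library 2 in each of the 6 classes. The share was 0.568% and 0.794% of epithelial-like UMIs in library 1 and library 2, 0.512% and 0.662% in stromal-like cells, 0.453% and 0.666% in muscle or pericyte-like cells, 0.495% and 0.584% in blood endothelial-like cells, 0.416% and 0.556% in T or NK-like cells, and 0.517% and 0.652% in macrophage-like cells. Members were selected on UMIs of both libraries together, and library 2 held more UMIs. The share of ribosomal protein genes, given below, was lower in library 2 in each of these classes. The larger shares are thus no result about the members in particular. Levels below are CPM, the UMIs of a gene divided by all UMIs of its class and put on a common scale. Counts come from transcript ends and are not divided by gene length.

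Class preferences of the members were repeated between the libraries in part. Of 132 members compared over 8 shared classes, 77 (58.3%) had the same highest class in both libraries, against 54.5% of all symbols, a share near the background. With cells thinned to 1000 UMIs the count was 37, and 11 members in place of 26 were highest in epithelial-like cells of library 1. Thinning leaves fewer UMIs, so fewer members may reach the minimum. The thinned counts have no share of all symbols beside them and are not comparable with 77 of 132. In library 1 stromal-like cells were the highest class for 32 of 135 members (23.7%, against 14.8% of all symbols) and macrophage-like cells for 24 (17.8% against 11.3%), while epithelial-like cells were highest for 26 (19.3% against 21.1%). In library 2, over 10 classes, stromal-like cells were highest for 26 of 134 members (19.4% against 15.1%), macrophage-like cells for 16 (11.9% against 7.96%), and epithelial-like and ciliated-like cells for 20 each (14.9%, against 12.3% and 12.8%). A level at least 2-fold over the next class was seen for 42 of 135 members in library 1 (31.1% against 22.2% of all symbols) and for 30 of 134 in library 2 (22.4% against 20.1%). Of 21 members that passed this 2-fold mark in both libraries, 19 (90.5%) named the same class, against 94.1% of all symbols. The exceptions were SLC5A6, highest in blood endothelial-like cells of library 1 and epithelial-like cells of library 2, and SLC16A6, highest in epithelial-like cells of library 1 and T or NK-like cells of library 2.

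**Figure D1:**
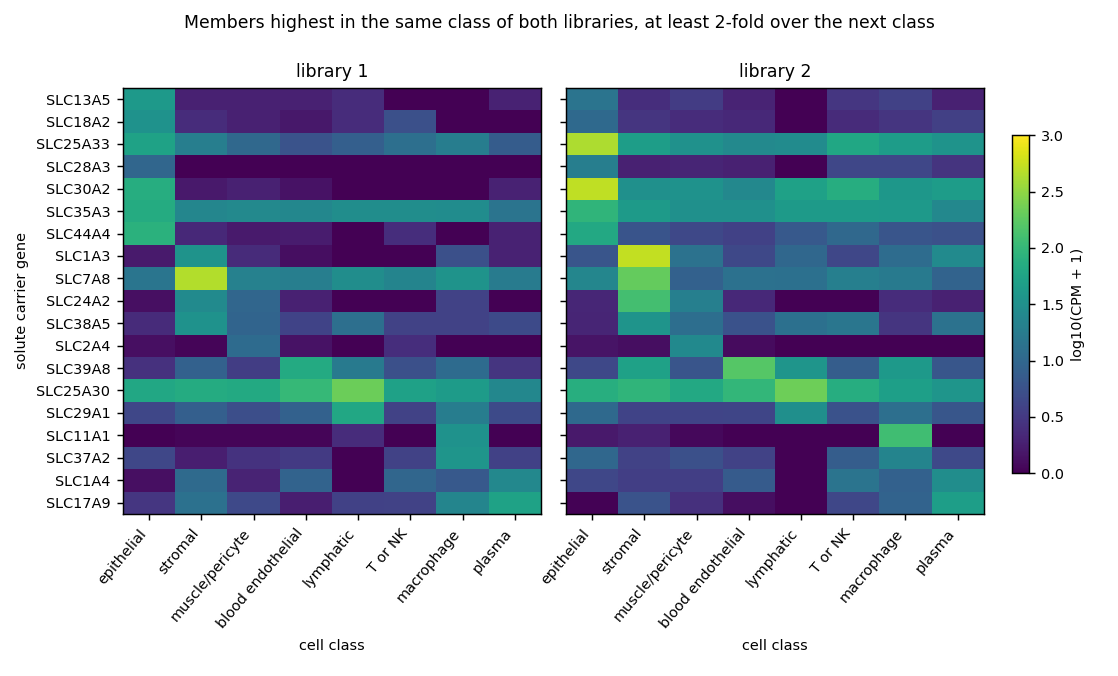
Level of the 19 members highest in the same class of both libraries, at least 2-fold over the next class, as log10(CPM + 1) for 8 classes of library 1 (left) and library 2 (right). The blocks run down the diagonal from 7 epithelial members through 4 stromal members to 2 plasma cell members, and SLC30A2 and SLC25A33 are also seen at a low level in every other class of library 2.

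Ciliated-like cells are not among the 8 shared classes. The 7 epithelial members of that set were SLC13A5 (a citrate importer), SLC18A2 (the vesicular monoamine carrier), SLC25A33 (a mitochondrial pyrimidine nucleotide carrier), SLC28A3 (a nucleoside importer), SLC30A2 (a zinc loader of secretory vesicles), SLC35A3 (a Golgi carrier of UDP-N-acetylglucosamine) and SLC44A4 (a choline-like carrier). The 4 stromal members were SLC1A3 (a glutamate importer), SLC7A8 (a light chain for neutral amino acids), SLC24A2 (a sodium-calcium-potassium exchanger) and SLC38A5 (a glutamine carrier). Muscle or pericyte-like cells had SLC2A4, the insulin-responsive glucose carrier, and blood endothelial-like cells had SLC39A8, an importer of zinc and manganese. Lymphatic-like cells had SLC25A30 and the nucleoside carrier SLC29A1. Macrophage-like cells had SLC11A1, which pumps iron and manganese out of phagosomes, and SLC37A2, of the sugar phosphate carrier family. Plasma cell-like cells had SLC1A4 and SLC17A9, the vesicular ATP carrier.

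Between the libraries, more members were higher in library 2 than lower in each of the 6 classes. A member counts here where its CPM differed at least 2-fold and it had at least 10 UMIs over both libraries in the class. The values for all symbols rest on symbols with at least 10 UMIs in the class, without the minimum total that members had to reach. That total was taken over both libraries, and library 2 held more UMIs, so genes found mainly in library 2 could enter the members. Members and all symbols are thus not a like comparison, and an excess of members higher in library 2 is no result about them in particular. In epithelial-like cells 45 of 138 members were higher in library 2 (32.6%, against 23% of all symbols) and 29 were lower (21% against 23.4%). In stromal-like cells 46 of 137 were higher (33.6% against 27.9%) and 16 lower (11.7% against 13.1%). In muscle or pericyte-like cells 45 of 134 were higher (33.6% against 21.7%) and 7 lower (5.22% against 10.7%). In blood endothelial-like cells 33 of 133 were higher (24.8% against 22.6%) and 9 lower (6.77% against 11.5%). T or NK-like cells had 35 of 102 higher (34.3% against 22.3%) and 8 lower (7.84% against 9.22%), and macrophage-like cells had 29 of 115 higher (25.2% against 18%) and 13 lower (11.3% against 15%). The median log2 ratio of library 2 over library 1 was 0.27 over members and -0.11 over all symbols in epithelial-like cells, 0.32 and 0.12 in stromal-like cells, 0.34 and -0.05 in muscle or pericyte-like cells, 0.11 and -0.07 in blood endothelial-like cells, 0.47 and 0.15 in T or NK-like cells, and 0.26 and -0.09 in macrophage-like cells. TMM scaling, which centres most genes at no change, moved all log2 ratios up by 0.25 in the epithelial-like class, by 0.21 in macrophage-like cells and by 0.12 in the blood endothelial-like class. With it macrophage-like cells had 38 members higher and 6 lower, so the higher share of calls went from 69.0% to 86.4%. The calls over all symbols moved the same way there, to 21.8% higher and 10.4% lower. With cells thinned to 1000 UMIs 24 members, in place of 45, were higher in epithelial-like cells, 10 in place of 16 were lower in stromal-like cells and 5 in place of 9 were lower in blood endothelial-like cells. With called doublets kept 15 were lower in blood endothelial-like cells, and 17 in place of 8 were lower in T or NK-like cells. With at least 50 UMIs in the class 1 was lower in T or NK-like cells, 4 in place of 7 in muscle or pericyte-like cells and 8 in place of 13 in macrophage-like cells. The counts with thinning, kept doublets or the higher minimum have no share of all symbols beside them. They are thus no result about the members in particular.

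Several properties of the libraries moved with this contrast. Ribosomal protein genes took 23.2% of epithelial-like UMIs in library 1 and 5.73% in library 2, 15.2% and 4.81% in stromal-like cells, and 12.4% and 6.51% in muscle or pericyte-like cells. The shares were 14.2% and 6.44% in blood endothelial-like, 17.1% and 10.0% in T or NK-like, and 11.7% and 6.86% in macrophage-like cells. Genes known to be very long, a list written after the data were seen with 24 of 32 present, had a median log2 ratio of 3.11 in epithelial-like, 3.54 in stromal-like and 3.81 in muscle or pericyte-like cells, and of 2.63, 2.52 and 2.82 in the blood endothelial-like, T or NK-like and macrophage-like classes. Immediate early and heat shock genes, a list also written afterwards with 23 of 30 present, had a median of 2.25 in epithelial-like, 0.95 in stromal-like, 1.12 in muscle or pericyte-like, 0.40 in blood endothelial-like, -0.23 in T or NK-like and -0.36 in macrophage-like cells. Markers of other cells also moved with the epithelial-like contrast. There the ciliated markers (7 of 15 with a symbol) summed to 269 CPM in library 1 and 33.4 CPM in library 2, the stromal markers (10 of 14) to 1737 and 472 CPM and the cell cycle genes (6 of 8) to 309.95 and 10.1 CPM. The same ciliated sum was 261 and 93.1 CPM in stromal-like cells and 499 and 233 CPM in muscle or pericyte-like cells. In the other compared classes it was at most 44.9 CPM. SLC16A11, which was highest in ciliated-like cells, was among the members lower in epithelial-like cells of library 2. The part of these in the members' differences was not tested.

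**Figure D2:**
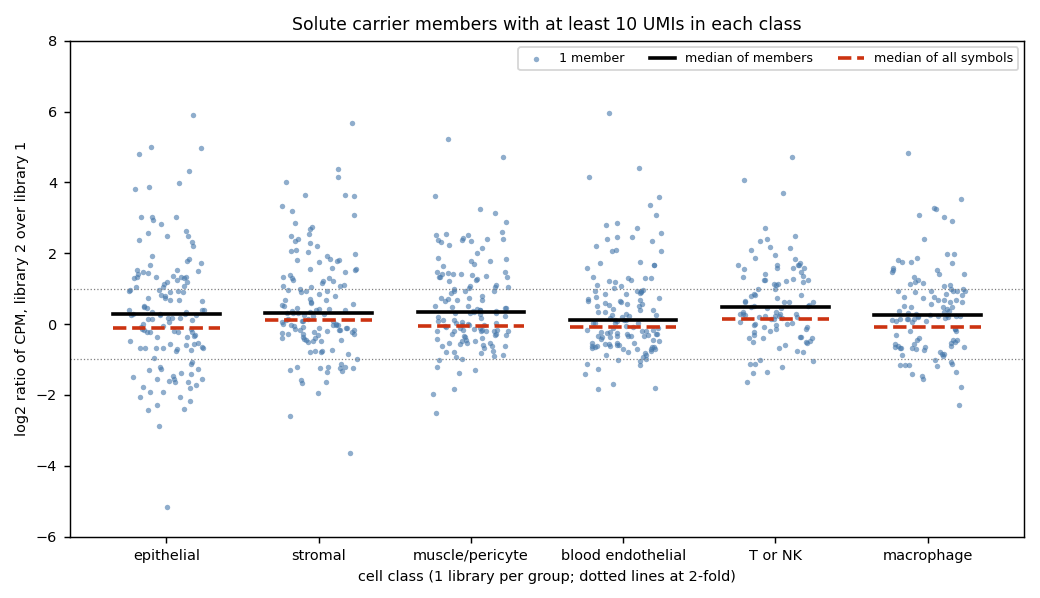
Log2 ratio of CPM, library 2 over library 1, for each member with at least 10 UMIs in the class (points), with the median of members (black line) and of all symbols (red dashed line) in 6 classes; members with 0 UMIs in 1 library are placed at the bound that a floor of 3 UMIs gives. The medians of members lie above those of all symbols in each class, and the widest range is in epithelial-like cells. All symbols needed no minimum total of UMIs, so the medians are not a like comparison.

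Of 99 members with enough UMIs in all 6 classes, 9 (9.09%) were at least 2-fold higher in library 2 in every class, against 7.83% of all symbols, and 0 were lower in every class, against 1.99%. The 9 were SLC1A2, SLC16A1, SLC19A2, SLC20A1, SLC25A25, SLC25A33, SLC30A2, SLC38A1 and SLC39A11. The share of members is near that of all symbols, and outside epithelium SLC30A2, and SLC38A1 in stromal-like cells, stood in library 2 near the share of their epithelial level that gland genes reached, as given below with the zinc carriers. SLC25A33 lay within the range of the gland genes in blood endothelial-like cells and above it in the other classes outside epithelium. Of 141 members, 17 (12.1%) were higher in 1 class and lower in another, against 6.27% of all symbols. Those symbols needed no minimum total of UMIs, so these shares are not a like comparison.

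A phosphate importer and a vitamin importer gave the highest log2 ratios in epithelial-like cells among members with at least 50 CPM. SLC20A1, a sodium-coupled phosphate importer, stood at 12.7 CPM in library 1 against 768 CPM in library 2 (38 and 16844 UMIs), for a log2 ratio of 5.92 (5.46 to 6.42). In the other 5 classes its level ran from 21.8 to 51.7 CPM in library 1 and from 79.3 to 139.8 CPM in library 2, so epithelial-like cells were the lowest of the 6 classes in library 1 and the highest in library 2. SLC5A6, which imports biotin and pantothenate, stood at 7.36 CPM in library 1 against 236 CPM in library 2 in epithelial-like cells (22 and 5173 UMIs), for a log2 ratio of 5.00 (3.90 with cells weighted equally and 3.78 with cells thinned to 1000 UMIs), but at 72.6 CPM in library 1 against 48.2 CPM in library 2 in blood endothelial-like cells. SLC19A2, a thiamine importer, stood at 14.1 CPM in library 1 against 199.01 CPM in library 2 in epithelial-like cells and passed 2-fold in the other 5 classes too. SLC46A3, a lysosomal carrier, stood at 14.4 CPM in library 1 against 89.8 CPM in library 2 in epithelial-like cells, for a log2 ratio of 2.64. The ascorbate importer SLC23A1 was an epithelial-like gene in both libraries at 38.8 CPM in library 1 against 33.5 CPM in library 2, for a log2 ratio of -0.21 (-0.50 to 0.08). SLC23A2, the broader ascorbate importer, was highest in macrophage-like cells of the 6 classes at 47.3 CPM in library 1 against 65.7 CPM in library 2 and stood at 5.36 CPM in library 1 against 9.98 CPM in library 2 in epithelial-like cells. The riboflavin importer SLC52A2 was highest in blood endothelial-like cells of library 1, at 81.3 CPM, and stood there at 51.9 CPM in library 2.

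**Figure D3:**
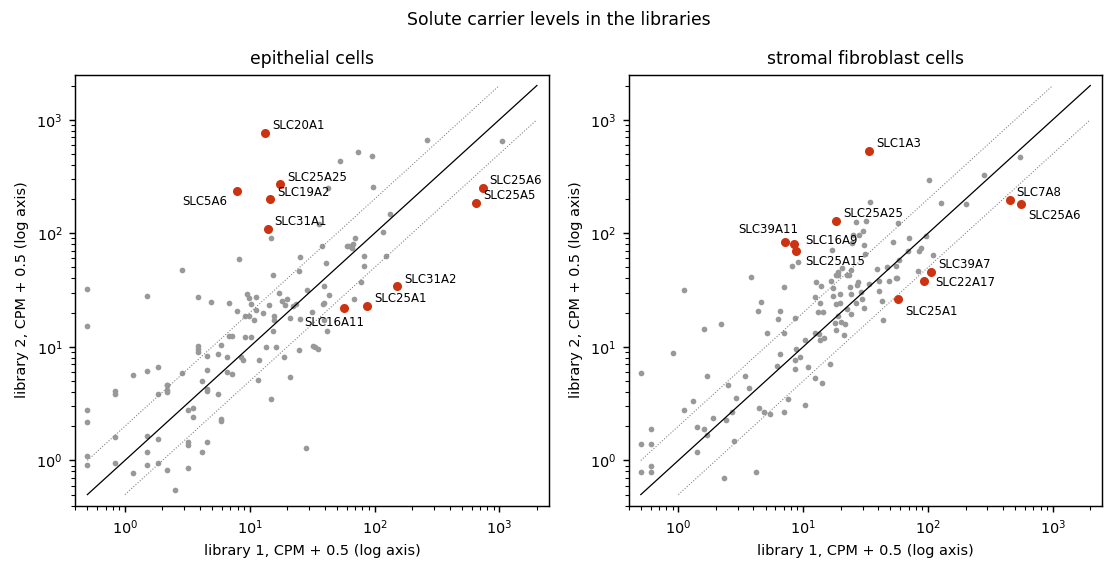
Level of each of the 141 members in library 1 (x) and library 2 (y) as CPM + 0.5 on log axes, in epithelial-like (left) and stromal fibroblast-like cells (right), with the line of equal level, dotted lines at 2-fold, and in red the 5 highest and 5 lowest log2 ratios among members with at least 50 CPM. SLC20A1 and SLC5A6 lie farthest above the line on the left and SLC1A3 on the right.

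Zinc, copper and iron carriers split by class. SLC30A2, the vesicular zinc loader, stood at 73 CPM in library 1 against 515 CPM in library 2 in epithelial-like cells, for a log2 ratio of 2.82 (2.62 to 3.02). Outside epithelium it was at most 0.88 CPM in the other compared classes of library 1, and at 24.1 to 72.2 CPM in library 2. T or NK-like cells had 0 and 109 UMIs of it, 16.6-fold higher in library 2 with the 0 set to a floor of 3 UMIs. That is a log2 ratio of 4.06, and its counting interval began at 3.73. In library 2 the SLC30A2 level in stromal-like cells was 6.01% of the epithelial level, where 4 gland secretory genes (ACP5, UABP-2, SLPI, RBP4) stood at 5.24% to 6.03% of theirs. The same comparison gave 6.40% against 5.48% to 6.75% in muscle or pericyte-like cells, 4.69% against 4.35% to 11.4% in blood endothelial-like cells, 14.04% against 10.7% to 13.1% in T or NK-like cells and 7.26% against 5.31% to 6.51% in macrophage-like cells. SLC30A2 outside epithelium thus lay within the range of the gland genes in 3 classes and above it in T or NK-like and macrophage-like cells. The part of free gland RNA in these levels was not tested. SLC38A1 in stromal-like cells stood at 5.12% of its epithelial level in library 1 and 5.14% in library 2, and in T or NK-like cells at 31.6% and 32.5%. SLC25A33 in library 2 stood at 5.69% in blood endothelial-like cells, within the range of the gland genes. It lay above that range in muscle or pericyte-like (7.47%), T or NK-like (14.1%), stromal-like (10.5%) and macrophage-like cells (10.3%). SLC20A1 lay above the gland genes in stromal-like (12.6%), muscle or pericyte-like (10.3%), T or NK-like (18.2%) and macrophage-like cells (17.8%). In blood endothelial-like cells it stood at 10.98%, under the 11.4% of SLPI and above the other 3 gland genes at 4.35% to 5.00%. SLPI was itself higher in blood endothelial-like (505 CPM) than in epithelial-like cells (209.5 CPM) of library 1. Epithelial markers, of which 7 of 15 had a symbol, summed to 3173 and 5878 CPM in epithelial-like cells, and to 40.7 to 389.6 CPM in library 1 and 347 to 857 CPM in library 2 in the other 5 classes.

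SLC39A11, a zinc importer, was higher in library 2 in all 6 classes, from 24.8 to 61.6 CPM in epithelial-like cells and from 6.63 to 83.6 CPM in stromal-like cells, for a log2 ratio of 3.66 (3.29 to 4.04) in the latter. SLC39A7, which releases zinc from the endoplasmic reticulum, went the other way in stromal-like cells, with 105 CPM in library 1 against 45.3 CPM in library 2, and in epithelial-like cells, with 77.3 CPM in library 1 against 36.7 CPM in library 2. SLC39A10 was lower in epithelial-like cells of library 2 at 34.5 CPM in library 1 against 9.16 CPM in library 2 and in macrophage-like cells at 108 CPM in library 1 against 53.4 CPM in library 2. SLC39A8 was highest in blood endothelial-like cells, at 67.9 CPM in library 1 against 159 CPM in library 2, and stood at 7.63 CPM in library 1 against 50.8 CPM in library 2 in stromal-like cells. SLC39A6 was highest in macrophage-like cells of the 6 classes, at 44.3 CPM in library 1 against 30.2 CPM in library 2, and stood at 24.4 CPM in library 1 against 8.89 CPM in library 2 in epithelial-like cells. SLC39A13, a zinc carrier of the secretory pathway, was highest of the 6 classes in stromal-like cells of library 1 and in epithelial-like cells of library 2, with 39.9 CPM in library 1 against 30.3 CPM in library 2 in the former class and 14.7 CPM in library 1 against 42.3 CPM in library 2 in the latter. The zinc exporter SLC30A1 stood at 24.1 CPM in library 1 against 46.1 CPM in library 2 in epithelial-like cells. Of the copper carriers, the importer SLC31A1 stood at 13.4 CPM in library 1 against 109 CPM in library 2 in epithelial-like cells, for a log2 ratio of 3.03 (1.93 with cells weighted equally). Its relative SLC31A2, found on endosomes, stood at 151 CPM in library 1 against 33.7 CPM in library 2 there, for a log2 ratio of -2.16 (-2.33 to -1.99), so the 2 members of family 31 differed in opposite directions in the same cells.

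SLC40A1, ferroportin, the exporter of iron, was highest in macrophage-like cells of library 1. It stood there at 168 CPM in library 1 against 34.5 CPM in library 2 (114 and 73 UMIs), for a log2 ratio of -2.29 (-2.73 to -1.85). In stromal-like cells it stood at 56.5 CPM in library 1 against 123 CPM in library 2, for a log2 ratio of 1.12 (0.97 to 1.26). SLC11A1 stood at 32.5 CPM in library 1 against 119 CPM in library 2 in macrophage-like cells, with at most 1.42 CPM in any other class of library 1 with at least 50 cells and at most 0.889 CPM in library 2. Of 13 iron genes on a fixed list that had a symbol, 10 had enough UMIs in macrophage-like cells, with 1 higher and 0 lower, and 12 in epithelial-like cells, with 4 higher and 3 lower. The 1 in macrophage-like cells was ACP5, an acid phosphatase that is also among the 4 gland genes above. It stood there at 115 CPM in library 1 and 1070.1 CPM in library 2. Over all symbols 18% were higher and 15% lower in macrophage-like cells, and 23% and 23.4% in epithelial-like cells. So few iron genes give no result about the list. The ferritin heavy chain FTH1 stood at 4253 CPM in library 1 and 18926 CPM in library 2 in epithelial-like cells.

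SLC38A2, a glutamine carrier found in every class, was highest in blood endothelial-like cells of library 1, with 580.0 CPM in library 1 against 660.1 CPM in library 2 there. SLC38A1, a close relative, was highest in epithelial-like cells at 261 CPM in library 1 against 657 CPM in library 2, followed among the compared classes by T or NK-like cells at 82.5 CPM in library 1 against 213 CPM in library 2. It was lowest in stromal-like cells, at 13.4 CPM in library 1 against 33.8 CPM in library 2. Over all 6 classes its log2 ratios ran from 1.01 to 2.40.

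SLC7A8, a light chain for neutral amino acids, stood at 449.9 CPM in library 1 against 196 CPM in library 2 in stromal-like cells, for a log2 ratio of -1.20 (-1.28 to -1.12), and at no more than 34 CPM in the other compared classes. SLC3A2, the heavy chain that it pairs with, was also highest in stromal-like cells at 201 CPM in library 1 against 181 CPM in library 2, within 2-fold between the libraries. SLC7A11, the cystine importer, stood at 109 CPM in library 1 against 63.7 CPM in library 2 in stromal-like cells, but at 6.75 CPM in library 1 against 47.1 CPM in library 2 in blood endothelial-like cells and at 4.43 CPM in library 1 against 51.5 CPM in library 2 in macrophage-like cells. The macrophage value in library 1 rests on 3 UMIs. With called doublets kept its log2 ratio there was 1.92 in place of 3.54, and with cells thinned to 1000 UMIs it was 1.38.

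SLC1A3, a glutamate and aspartate importer, was the widest stromal difference among members with at least 50 CPM. It stood at 33.3 CPM in library 1 against 533 CPM in library 2 (332 and 5396 UMIs), for a log2 ratio of 4.00 (3.84 to 4.16), against 3.31 to 12.4 CPM in the other 5 classes of library 2. All 5 members of family 1 with enough UMIs were higher in epithelial-like cells of library 2, with a median log2 ratio of 2.37, yet none of them was above 31.5 CPM there. Over all symbols 23% were higher in that class, and 5 genes are too few for a result about the family. SLC1A2, a second glutamate importer, stood at 4.34 CPM in library 1 against 113 CPM in library 2 in T or NK-like cells, 8.86 CPM in library 1 against 85.5 CPM in library 2 in macrophage-like cells and 1.76 CPM in library 1 against 46.6 CPM in library 2 in muscle or pericyte-like cells. SLC1A5, a glutamine exchanger, stood at 13.9 CPM in library 1 against 75.7 CPM in library 2 in blood endothelial-like cells, for a log2 ratio of 2.45 (2.19 to 2.71), and at 29.9 CPM in library 1 against 104 CPM in library 2 in stromal-like cells. In T or NK-like cells it stood at 30.4 CPM in library 1 against 31.1 CPM in library 2, for a log2 ratio of 0.03.

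SLC7A1, the importer of arginine and lysine, stood at 41.8 CPM in library 1 against 248 CPM in library 2 in epithelial-like cells, for a log2 ratio of 2.57 (2.31 to 2.84), and at 19.2 CPM in library 1 against 156 CPM in library 2 in macrophage-like cells. B cell-like cells of library 2 had 262 CPM. SLC7A6 and SLC7A7, light chains that exchange basic for neutral amino acids, differed in place: SLC7A7 stood at 90.1 CPM in library 1 against 105 CPM in library 2 in macrophage-like cells and 73.6 CPM in library 1 against 89.7 CPM in library 2 in blood endothelial-like cells. SLC7A6 was highest in macrophage-like cells among the compared classes of library 1 and in T or NK-like cells among those of library 2, with 54.6 CPM in library 1 against 24.6 CPM in library 2 and 26.1 CPM in library 1 against 61 CPM in library 2. Of 8 amino acid response genes on a fixed list with enough UMIs in epithelial-like cells, 4 were higher and 2 lower. Over all symbols 23% were higher and 23.4% lower in that class, and 8 genes are too few for a result about the list. ATF4, a transcription factor of that response, stood at 217 CPM in library 1 and 786 CPM in library 2, and the serine synthesis enzyme PSAT1 at 162 and 48.01 CPM.

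**Figure D4:**
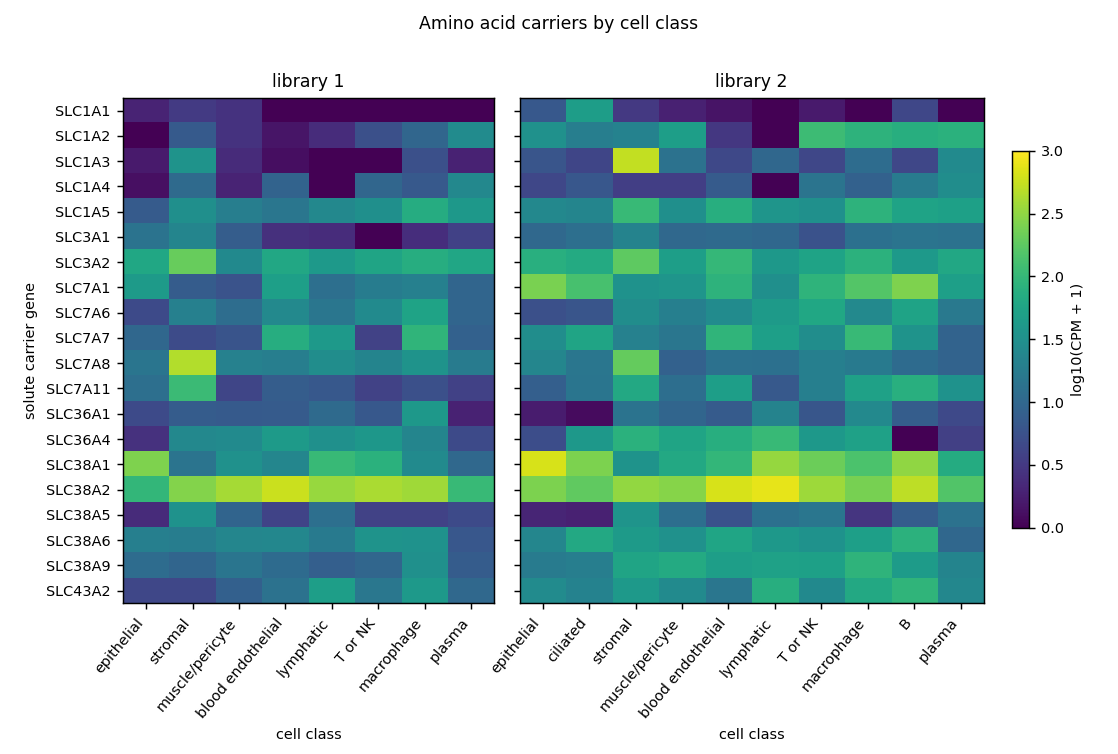
Level of 20 amino acid carriers (rows) as log10(CPM + 1) in 8 classes of library 1 and 10 classes of library 2. SLC38A2 is at 96.1 CPM or more in every class shown, SLC7A8 and SLC1A3 are brightest in stromal-like cells, and SLC38A1 is brightest in epithelial-like cells of both libraries.

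SLC38A9, which senses arginine in the lysosome, stood at 31 CPM in library 1 against 88.9 CPM in library 2 in macrophage-like cells, 13.6 CPM in library 1 against 67.9 CPM in library 2 in muscle or pericyte-like cells and 8.64 CPM in library 1 against 55.8 CPM in library 2 in stromal-like cells, but at 10.4 CPM in library 1 against 16.7 CPM in library 2 in epithelial-like cells. SLC36A1, a proton-coupled exporter of small amino acids, stood at 38.4 CPM in library 1 against 25.1 CPM in library 2 in macrophage-like cells and no higher than 20.9 CPM in any other class. Its relative SLC36A4 had a wider place: 22.2 CPM in library 1 against 50.6 CPM in library 2 in macrophage-like cells, 42.2 CPM in library 1 against 75.3 CPM in library 2 in blood endothelial-like cells, and only 1.67 CPM in library 1 against 4.1 CPM in library 2 in epithelial-like cells. SLC38A6 stood between 17.9 and 33.3 CPM in the 6 compared classes of library 1, and between 22.8 and 57.6 CPM in library 2. SLC43A2, an exporter-type carrier of large neutral amino acids, was highest in lymphatic-like cells of library 1, at 46.9 CPM, and in B cell-like cells of library 2, at 90.8 CPM. Stromal-like cells held 3.31 CPM in library 1 against 40.7 CPM in library 2 of it, for a log2 ratio of 3.62 (3.10 to 4.18). SLC3A1, the heavy chain of the cystine and basic amino acid carrier, was highest in stromal-like cells of both libraries, at 21.9 CPM in library 1 against 20.8 CPM in library 2. By family, the 5 glutamine carriers of family 38 held 10.6% of member UMIs, and 3 of 5 were higher in blood endothelial-like cells of library 2 and 0 lower. In T or NK-like cells 4 of 5 members of family 7 were higher and 0 lower. Over all symbols 22.6% were higher and 11.5% lower in blood endothelial-like cells, and 22.3% and 9.22% in T or NK-like cells. With so few members these counts are no result about the families.

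Among sugar carriers, SLC2A3 was highest in muscle or pericyte-like cells of library 2. SLC2A3, a high-affinity glucose carrier, stood at 82.8 CPM in library 1 against 469 CPM in library 2 in muscle or pericyte-like cells, for a log2 ratio of 2.50 (2.39 to 2.62), and at 33.6 CPM in library 1 against 187 CPM in library 2 in stromal-like cells. In epithelial-like cells it went the other way, with 18.4 CPM in library 1 against 7.57 CPM in library 2. Of the 4 members of family 2 with enough UMIs in epithelial-like cells, 3 were lower and 0 higher, against 23.4% and 23% of all symbols. SLC2A4 stood at 10.1 CPM in library 1 against 25.6 CPM in library 2 in muscle or pericyte-like cells and at most 1.45 CPM in the other 5 classes of either library. SLC2A8, an intracellular hexose carrier, was highest in epithelial-like cells of both libraries, at 38.8 CPM in library 1 against 16.6 CPM in library 2. SLC5A3, which imports myo-inositol, stood at 4.35 CPM in library 1 against 24.2 CPM in library 2 in epithelial-like cells, for a log2 ratio of 2.48, and at 45.8 CPM in library 1 against 15.6 CPM in library 2 in macrophage-like cells, so its highest class of the 6 compared was macrophage-like in library 1 and epithelial-like in library 2. SLC5A10 was most abundant in macrophage-like and T or NK-like cells, at 79.8 CPM in library 1 against 99.7 CPM in library 2 in the former and 72.4 CPM in library 1 against 125 CPM in library 2 in the latter. All 3 members of family 5 were higher in epithelial-like cells of library 2, against 23% of all symbols. So few members give no result about a family. Glycolysis and lactate genes on a fixed list gave 3 higher and 8 lower of 16 in epithelial-like cells. Among them LDHB, a lactate dehydrogenase chain, stood at 4316 CPM in library 1 and 785 CPM in library 2, and PDK4, which holds back pyruvate oxidation, at 6.36 and 591 CPM.

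Among 10 monocarboxylate carriers of family 16, 3 were higher and 5 lower in epithelial-like cells, against 23% and 23.4% of all symbols. SLC16A1, the main lactate importer and exporter, was low there at 1.34 CPM in library 1 against 6.11 CPM in library 2 and belonged to the 9 members that passed 2-fold in every class. The highest levels of it among the compared classes were in T or NK-like cells, at 29 CPM in library 1 against 129.9 CPM in library 2, and in blood endothelial-like cells it stood at 9.55 CPM in library 1 against 68.7 CPM in library 2, for a log2 ratio of 2.85 (2.55 to 3.16). SLC16A7, with a higher affinity for pyruvate, was a carrier of muscle or pericyte-like cells at 63.8 CPM in library 1 against 73.4 CPM in library 2 and macrophage-like cells at 62 CPM in library 1 against 119.6 CPM in library 2. SLC16A9 stood at 7.94 CPM in library 1 against 80.0 CPM in library 2 in stromal-like cells, for a log2 ratio of 3.33 (3.00 to 3.69). SLC16A13, whose substrate is less well known, was lower in epithelial-like cells of library 2 at 20.4 CPM in library 1 against 4.88 CPM in library 2, and SLC16A4 was near 0 in library 1 and at 8.4 CPM in stromal-like cells of library 2 (4 and 85 UMIs). SLC16A6, singled out after its values were seen, stood at 27.8 CPM in library 1 against 0.775 CPM in library 2 in epithelial-like cells (83 and 17 UMIs), the lowest log2 ratio of any member in any compared class, -5.16.

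Among ion exchangers, SLC8A1 had the highest level. SLC8A1, the sodium-calcium exchanger of excitable cells, stood at 261 CPM in library 1 against 1365 CPM in library 2 in muscle or pericyte-like cells, for a log2 ratio of 2.38 (2.32 to 2.45), and was the member with the highest CPM of that class in library 2. It stood at 161 CPM in library 1 against 544 CPM in library 2 in macrophage-like cells, 73.9 CPM in library 1 against 406 CPM in library 2 in blood endothelial-like cells and 12.4 CPM in library 1 against 19.3 CPM in library 2 in epithelial-like cells. SLC8A1 is known as a long gene, and the part of gene length in its ratios, or in those of other members, was not tested. SLC24A2 stood at 26.1 CPM in library 1 against 126 CPM in library 2 in stromal-like cells. SLC9A7, a proton exchanger of the Golgi, stood at 7.38 CPM in library 1 against 209 CPM in library 2 in macrophage-like cells (5 and 443 UMIs), for a log2 ratio of 4.83 (3.59 to 6.46), and at 309 CPM in B cell-like cells of library 2. SLC14A1, a urea channel, was found in muscle or pericyte-like cells, at 5.94 CPM in library 1 against 30.8 CPM in library 2. SLC41A1, a magnesium exporter, stood at 206 CPM in library 1 against 59.7 CPM in library 2 in lymphatic-like cells, where library 2 had only 75 cells. The potassium-chloride exporters SLC12A4 and SLC12A7 divided the classes: SLC12A4 stood at 57 CPM in library 1 against 45.7 CPM in library 2 in muscle or pericyte-like cells and 5.36 CPM in library 1 against 1.73 CPM in library 2 in epithelial-like cells, and SLC12A7 at 56.2 CPM in library 1 against 45.9 CPM in library 2 in blood endothelial-like cells. In ciliated-like cells of library 2 SLC12A7 reached 62.4 CPM. SLC4A2, a chloride-bicarbonate exchanger, ranged from 20.3 to 42.5 CPM over the 6 classes of library 1 and from 9.28 to 24.8 CPM in library 2, with stromal-like cells highest of the 6 in both libraries. SLC10A7, known for its part in calcium balance of the secretory pathway, stood at 16.4 CPM in library 1 against 70.4 CPM in library 2 in stromal-like cells (163 and 713 UMIs), while SLC10A3 stood at 193 CPM in library 1 against 149 CPM in library 2 in T or NK-like cells, with epithelial-like cells next in library 2 at 147 CPM, within counting error.

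Counts of the gene lists around the carriers stand beside 23% higher and 23.4% lower over all symbols in epithelial-like cells, 27.9% and 13.1% in stromal-like cells, 21.7% and 10.7% in muscle or pericyte-like cells, and 22.6% and 11.5% in blood endothelial-like cells. In macrophage-like cells the shares were 18% and 15%. With so few genes in a list, a count near these shares is no result about it. Of 4 sodium-potassium ATPase genes with a symbol, 3 were lower and 1 higher in epithelial-like cells, 2 were higher and 0 lower in muscle or pericyte-like cells, and 2 were higher and 2 lower in blood endothelial-like cells. ATP1B1, the beta chain of that pump, stood at 497 CPM in library 1 and 60.4 CPM in library 2 there. Of 15 ancillary chains, chaperones and scaffolds of carriers with enough UMIs in epithelial-like cells, 2 were higher and 4 lower. PDZK1, a scaffold that holds carriers at the apical membrane, stood at 295 CPM in library 1 and 6.79 CPM in library 2 in epithelial-like cells. Of 10 kinases and ligases on a fixed list that act on carriers, 5 were higher in epithelial-like cells and 0 lower, with SGK1 at 63.6 CPM in library 1 and 320.2 CPM in library 2 and WNK1 at 22.4 and 228 CPM. The same list gave 5 higher of 10 in stromal-like cells with 0 lower, and 5 higher with 1 lower in blood endothelial-like cells. Of 5 zinc handling genes in stromal-like cells 3 were higher and 0 lower, and of 3 in macrophage-like cells 0 were higher and 1 lower. The zinc-binding metallothionein MT2A stood at 1523 and 2347 CPM in epithelial-like cells of library 1 and library 2. ABC transporters, pumps driven by ATP, gave 3 higher and 1 lower of 8 in epithelial-like cells. Solute carrier symbols of another form (28, such as SLCO1A2 and SLC35F3) gave 9 higher and 7 lower of 22 there, and 11 higher and 1 lower of 22 in blood endothelial-like cells. SLC35F3 stood at 3.35 CPM in library 1 and 437 CPM in library 2 in epithelial-like cells, and the organic anion carrier SLCO1A2 at 109.8 and 2.69 CPM.

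The mitochondrial family 25 held 29 members and 36.5% of member UMIs. In epithelial-like cells 5 of them were higher and 7 lower, and in blood endothelial-like cells 6 were higher and 2 lower. Over all symbols the shares were 23% and 23.4%, and 22.6% and 11.5%, so these counts are near or below the background. The phosphate carrier SLC25A3 was abundant in every class, with 1052 CPM in library 1 against 652 CPM in library 2 in epithelial-like cells and 873 CPM in library 1 against 939 CPM in library 2 in muscle or pericyte-like cells, and stayed within 2-fold in all 6. The exchangers of ADP for ATP were lower in library 2 where they passed 2-fold. SLC25A5 stood at 656 CPM in library 1 against 186 CPM in library 2 in epithelial-like cells, for a log2 ratio of -1.82 (-1.90 to -1.74), and at 57.9 CPM in library 1 against 57.5 CPM in library 2 in stromal-like cells, for a log2 ratio of -0.01. SLC25A6 stood at 733 CPM in library 1 against 249.6 CPM in library 2 in epithelial-like cells and 557 CPM in library 1 against 179 CPM in library 2 in stromal-like cells, with log2 ratios of -1.55 and -1.64. SLC25A1, the citrate exporter of mitochondria, stood at 86 CPM in library 1 against 22.6 CPM in library 2 in epithelial-like cells.

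Other mitochondrial members were higher. SLC25A25, a calcium-regulated carrier of ATP-Mg and phosphate, stood at 17.1 CPM in library 1 against 269.9 CPM in library 2 in epithelial-like cells, for a log2 ratio of 3.98 (3.59 to 4.41). Its relative SLC25A24 went the other way in epithelial-like cells at 31.8 CPM in library 1 against 9.62 CPM in library 2 and in T or NK-like cells at 116 CPM in library 1 against 45.1 CPM in library 2, for a log2 ratio of -1.36 (-1.85 to -0.88) in the latter. SLC25A33 stood at 52.9 CPM in library 1 against 431 CPM in library 2 in epithelial-like cells, and SLC25A29, a carrier of basic amino acids, at 95.7 CPM in library 1 against 480.0 CPM in library 2. SLC25A15, the ornithine carrier, stood at 8.24 CPM in library 1 against 70.0 CPM in library 2 in stromal-like cells, for a log2 ratio of 3.09 (2.76 to 3.44), and at 3.35 CPM in library 1 against 8.53 CPM in library 2 in epithelial-like cells.

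SLC25A12 and SLC25A13, the aspartate-glutamate exchangers, had different places: SLC25A13 was highest in epithelial-like cells of the 6 classes, at 66.6 CPM in library 1 against 79.6 CPM in library 2, while SLC25A12 stood there at 16.7 CPM in library 1 against 29 CPM in library 2 and reached 23.6 CPM in library 1 against 75.1 CPM in library 2 in blood endothelial-like cells, for a log2 ratio of 1.67 (1.47 to 1.88). SLC25A38, a glycine carrier of heme synthesis, was highest in macrophage-like cells at 54.6 CPM in library 1 against 98.8 CPM in library 2. SLC25A28, an iron importer of mitochondria, stood at 57.3 CPM in library 1 against 73.1 CPM in library 2 in blood endothelial-like cells and 66.5 CPM in library 1 against 58.1 CPM in library 2 in macrophage-like cells. SLC25A39, the glutathione carrier, stood at 68.6 CPM in library 1 against 26.1 CPM in library 2 in epithelial-like cells, for a log2 ratio of -1.40. SLC25A27 stood there at 35.5 CPM in library 1 against 121 CPM in library 2, for a log2 ratio of 1.77 (1.49 to 2.06). Carriers that differed little included SLC25A11, the oxoglutarate exchanger, at 52.1 CPM in library 1 against 45.4 CPM in library 2 in muscle or pericyte-like cells. Of 8 other mitochondrial membrane genes on a fixed list, 1 was higher and 4 lower in epithelial-like cells. Over all symbols 23% were higher and 23.4% lower there, and 8 genes are too few for a result about the list. In these cells TSPO, a cholesterol-binding protein of the outer membrane, stood at 559.99 CPM in library 1 and 86.99 CPM in library 2. MTCH1 stood at 472 and 1291 CPM.

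SLC15A2, a peptide importer, stood at 48.6 CPM in library 1 against 359.7 CPM in library 2 in plasma cell-like cells, 266 CPM in B cell-like cells of library 2 and 37.8 CPM in library 1 against 23.5 CPM in library 2 in epithelial-like cells. SLC15A3, a lysosomal carrier of histidine and peptides, stood at 82.7 CPM in library 1 against 60.03 CPM in library 2 in macrophage-like cells. SLC17A9 stood at 52.4 CPM in library 1 against 46.5 CPM in library 2 in plasma cell-like cells. SLC29A1 stood at 62.6 CPM in library 1 against 29.9 CPM in library 2 in lymphatic-like cells. SLC37A3, of the sugar phosphate carrier family, stood at 44.9 CPM in library 1 against 142 CPM in library 2 in T or NK-like cells, for a log2 ratio of 1.66 (1.11 to 2.25). The 4 nucleotide sugar carriers of family 35 were within 2-fold in 5 of the 6 classes. In T or NK-like cells 1 of them, SLC35A1, was higher. Over all symbols 18% to 27.9% were higher and 9.22% to 23.4% lower in the 6 classes. With 4 members this is no result about the family. SLC15A4, a second lysosomal peptide carrier, stood at 39.9 CPM in library 1 against 76.6 CPM in library 2 in macrophage-like cells and at 94.2 CPM in B cell-like cells of library 2. SLC17A5, the lysosomal exporter of sialic acid, stood at 21.7 CPM in library 1 against 51 CPM in library 2 in T or NK-like cells. SLC33A1, the acetyl-CoA carrier of the endoplasmic reticulum, was highest in epithelial-like cells of library 1 at 123 CPM, against 62.8 CPM in library 2, and stood at 57.9 CPM in library 1 against 37.5 CPM in library 2 in muscle or pericyte-like cells. SLC22A17 stood at 92.7 CPM in library 1 against 37.8 CPM in library 2 in stromal-like cells, for a log2 ratio of -1.29 (-1.47 to -1.12), and its relative SLC22A3, an organic cation carrier, at 5.69 CPM in library 1 against 104 CPM in library 2 in lymphatic-like cells. That class held 210 cells with 702993 UMIs in library 1 and only 75 cells with 334984 UMIs in library 2. The lymphatic-like values of SLC22A3 and SLC29A1 thus rest on few UMIs. SLC44A1 and SLC44A2, choline carriers, were broad, with SLC44A1 at 96.1 CPM in library 1 against 93.7 CPM in library 2 in stromal-like cells and SLC44A2 at 163 CPM in library 1 against 118 CPM in library 2 in blood endothelial-like cells. SLC27A4, a fatty acid carrier, stood between 8.86 and 19.5 CPM over the 6 classes of library 1. SLC6A8, the creatine importer, stood at 1 CPM in library 1 against 27.8 CPM in library 2 in epithelial-like cells (3 and 609 UMIs), a value singled out after it was seen.

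Ciliated-like cells could be described in library 2 (578 cells), while library 1 had 36. SLC16A11, a monocarboxylate carrier, stood at 421 CPM in library 2, against at most 33.6 CPM in any other class, and at 615 CPM (142 UMIs) in library 1. SLC4A4, a sodium bicarbonate carrier, stood at 178 CPM against 58.5 CPM in epithelial-like cells of the same library, and at 30.3 CPM (7 UMIs) in the 36 cells of library 1. SLC44A4 stood at 169 CPM in library 2 and at 221 CPM (51 UMIs) in library 1. The glucose carrier SLC2A12, the glutamate carrier SLC1A1 and the nucleoside importer SLC28A3 stood at 53.2, 46.2 and 65.3 CPM in library 2, each above every other class there. SLC16A11 in epithelial-like cells was sensitive to which cells entered that class: its log2 ratio of -1.42 became -2.14 with a minimum of 1000 UMIs per barcode and -2.20 with called doublets kept.

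Within epithelial-like cells of library 2 the members divided the clusters. Against cluster 2 (1418 cells, led by SLPI, UABP-2 and SULT2A1), cluster 10 (918 cells, led by SAL1) had 17 of 131 members at least 2-fold higher (13%, against 11.2% of all symbols) and 21 lower (16% against 7.47%). SLC38A1 stood at 182 CPM in cluster 2, 857 CPM in cluster 12 and 1436 CPM in cluster 10, and it was among the leading genes of cluster 10. SLC7A1 stood at 163, 265 and 405 CPM in the same order and SLC23A1 at 13.1, 25.9 and 83.7 CPM. SLC20A1 ran the other way, with 1018, 779.7 and 265 CPM, and so did SLC5A6, with 319, 236 and 71.8 CPM. Cluster 24, nearly all of library 1, had 12.2 CPM of SLC20A1 and 7.2 CPM of SLC5A6, below each of these 3 clusters. SLC23A1 in cluster 24, at 40.7 CPM, lay between cluster 12 and cluster 10.

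**Figure D5:**
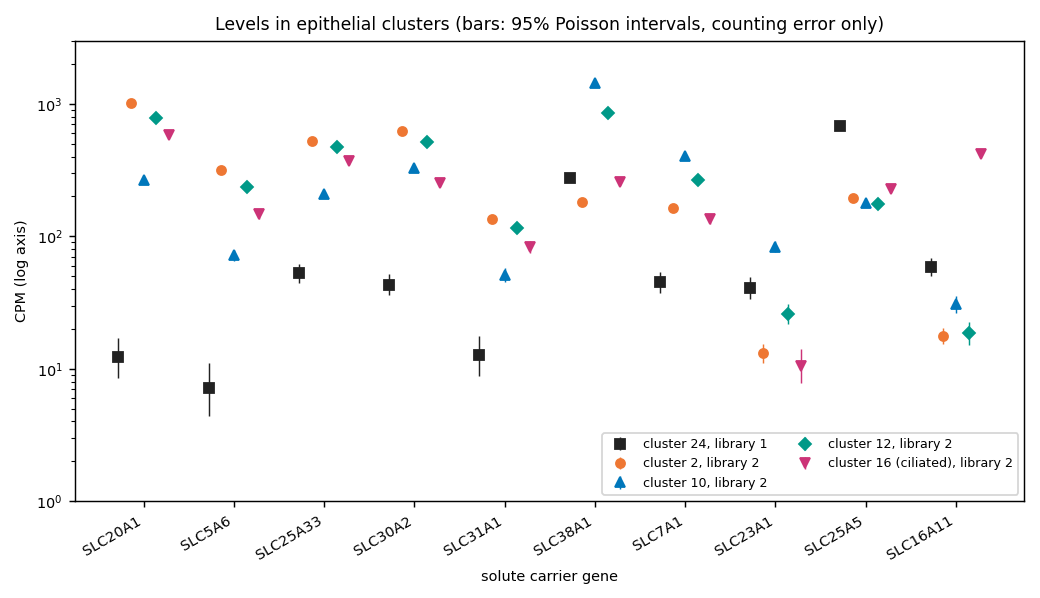
Level of 10 members as CPM (log axis) in epithelial-like cluster 24 of library 1 and in epithelial-like clusters 2, 10 and 12 and the ciliated-like cluster 16 of library 2, with 95% Poisson intervals for counting error. SLC20A1, SLC5A6 and SLC31A1 are lowest in cluster 24 of library 1, SLC38A1 and SLC7A1 are highest in cluster 10, and SLC16A11 is highest in ciliated-like cells.

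Some cluster differences inside a class recurred in both libraries. In muscle or pericyte-like cells, clusters 1 (library 1) and 8 (library 2) shared EDNRB, CCL19 and TFPI2 among their leading genes, and clusters 13 and 20 shared MGP and ITIH4. Against cluster 1, cluster 13 had 15 of 122 members at least 2-fold higher (12.3%, against 9.98% of all symbols) and 14 lower (11.5% against 10.3%). Against cluster 8, cluster 20 had 10 of 128 higher (7.81% against 7.13%) and 19 lower (14.8% against 11.5%). SLC14A1 stood at 9.66 CPM in cluster 1 and 0.459 CPM in cluster 13, and at 40.6 CPM in cluster 8 and 2.09 CPM in cluster 20. SLC1A5 had the same order, with 21.1 and 2.76 CPM in library 1 and 38.7 and 4.88 CPM in library 2. SLC25A4, the ADP and ATP exchanger of muscle, had the opposite order, with 37.7 and 186 CPM in library 1 and 40.8 and 150.5 CPM in library 2, as did SLC2A4, with 4.83 and 30.3 CPM and then 18.5 and 46 CPM.

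Blood endothelial-like clusters 0 (library 1) and 3 (library 2) shared ACKR1, SELP and PLVAP, and clusters 19 and 22 shared GJA5, SEMA3G and CLDN5. Against cluster 0, cluster 19 had 10 of 115 members higher (8.7%, against 5.21% of all symbols) and 4 lower (3.48% against 3.3%). Against cluster 3, cluster 22 had 16 of 121 higher (13.2% against 7.8%) and 5 lower (4.13% against 4.09%). SLC7A11 stood at 4.54 CPM in cluster 0 and 17.4 CPM in cluster 19, and at 23.6 CPM in cluster 3 and 122 CPM in cluster 22. SLC50A1, a sugar uniporter, had the same order with 94.9 and 212 CPM and then 63.1 and 142 CPM. SLC38A1 had the opposite order, with 25.7 and 8.42 CPM in library 1 and 125 and 48.2 CPM in library 2. In stromal-like cells, clusters 5 (library 1) and 11 (library 2) shared RORB, C3 and CYP1B1. SLC16A7 stood at 44.2 CPM in cluster 5 and 9.13 CPM in cluster 7 of library 1, and at 69.9 CPM in cluster 11 and 16.5 CPM in cluster 4 of library 2. SLC7A11 differed between clusters 11 and 4 of library 2, at 126 and 25.1 CPM, and stood at 104 and 115 CPM in clusters 5 and 7 of library 1.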

How the data were processed

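The deposited values are raw UMI counts per gene and barcode, made with Cell Ranger 6.1.0 per the file headers, while Cell Ranger 2.1.1 is named per the submitters' processing notes. Neither the genome build nor the counting of introns is recorded in the sources used here. Of 26881 gene rows, 16128 had no symbol and were used for totals only. 1 member lay on 2 feature rows, which were summed.

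Barcodes under 500 UMIs or under 200 genes were dropped (5 in library 1 and 1 in library 2), and doublets called by Scrublet were removed, 1110 (11.1%) and 2419 (16.0%). Both libraries were clustered together in scanpy 1.11.5 without batch integration, using 2000 variable genes with SLC symbols left out, 30 components, 15 neighbours and Leiden resolution 1 (igraph 0.11.9). A cluster was named where at least 3 markers were detected and its marker score (pseudocount 20 CPM) reached 0.5 with a margin of 0.25. Clusters led by cell cycle genes, and those whose median UMI count was more than 3-fold below their library's with no marker of their best class among the 10 leading genes, stayed unnamed. Unnamed cells were 1.69% and 9.65%.

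UMIs were summed per class and library, given as CPM, and compared as log2 ratios with exact conditional binomial 95% intervals and a floor of 3 UMIs. With 1 library per group no test was run. Ratios and intervals were checked on simulated class sums with counting error only. That check does not cover differences between cells, animals or captures. Genes were named by a rule: in each compared class the 3 highest levels, the 3 largest ratios to other named cells with at least 50 CPM, and the 5 (epithelial-like, stromal-like) or 3 (other classes) highest and lowest log2 ratios; and in families of at least 4 members the most abundant and the most class-marked. Every other member named was chosen after its values were seen. The members and gene lists were chosen with earlier results of these data known. Reads shared by close paralogs, such as SLC25A5 and SLC25A6, may be split uncertainly by the counting. Some members are not reported here by name.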

Additional observations from a re-analysis of the deposited data

Results flagged for a closer look

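SLC7A6, a light chain that exchanges basic and neutral amino acids, differed in opposite directions between classes, with a log2 ratio of library 2 over library 1 of 1.23 in T or NK-like cells and -1.15 in macrophage-like cells. SLC40A1, the iron exporter, did so with 1.12 in stromal-like cells and -2.29 in macrophage-like cells. The difference between the classes was not tested in either case.

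Cluster 6 of library 2 (1149 cells) was left unnamed, since its median of 1045 UMIs was more than 3-fold below the 3924 of its library's cells after doublet removal and no marker of its best class was among its leading genes. Its ribosomal share was 2.59%. Several members stood there at more than 2-fold the highest named class of that library. The share of all symbols at such a ratio is not given, so this is no result about the members in particular. SLC20A1 stood at 2913 CPM (768 in epithelial-like cells), SLC7A1 at 637 CPM (262 in B cell-like cells) and SLC5A6 at 487 CPM (236 in epithelial-like cells). SLC25A27 stood at 249.95 CPM (121 in epithelial-like cells), SLC31A1 at 239 CPM (109 in epithelial-like cells) and SLC45A4 at 147 CPM (57.2 in ciliated-like cells). SLC20A1 was among the leading genes of the cluster. No cause was tested.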

How the results depend on the processing

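No alternative reversed a named log2 ratio: 357 of 396 moved by less than the counting interval and 39 moved by more, 17 of them with cells thinned to 1000 UMIs. Of 171 recomputed counts, 159 stayed within 1.5 times the reported one. With called doublets kept, 15 members (not 9) were lower in blood endothelial-like and 17 (not 8) in T or NK-like cells. With TMM scaling 6 (not 13) were lower in macrophage-like cells. With cells thinned to 1000 UMIs, which left out 524 and 382 cells, 24 (not 45) were higher in epithelial-like cells, 10 (not 16) lower in stromal-like cells and 5 (not 9) lower in blood endothelial-like cells, 11 (not 26) were highest in epithelial-like cells of library 1, and 37 (not 77) had the same highest class in both libraries. With at least 50 UMIs in the class, 4 (not 7) were lower in muscle or pericyte-like, 1 (not 8) in T or NK-like and 8 (not 13) in macrophage-like cells, and with members of at least 400 UMIs 4 (not 7) in muscle or pericyte-like cells. Thinning and the higher minimums leave fewer UMIs or members to count, and otherwise the cause was not tested. Apart from TMM scaling, no share of all symbols is given for these counts. They are thus no result about the members in particular. In epithelial-like cells the log2 ratio of SLC5A6 was 5.00 as reported, 3.90 with cells weighted equally and 3.78 thinned, and that of SLC31A1 was 3.03 as reported and 1.93 with cells weighted equally. No paired analysis was possible because each group has 1 library. Epithelial-like cells of library 1 number 194, which limits the precision of every epithelial ratio, and levels of a few UMIs were not separable from 0 at this depth.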
